A study of Coprinopsis cinerea AmutBmut pab1-1 with 7 samples.

Results

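The comparison described here is that of the strain Δ*cre1*-43 with the wild type of *Coprinopsis cinerea*, the ink cap mushroom, across all gene models of the deposited count table. Its members are 5 of the 7 libraries of the series: 3 of the wild type and 2 of Δ*cre1*-43, chosen by the sample labels. The 2 libraries of a second mutant strain took no part in the fit. All 14242 genes of the table were compared, of which 12711 had a count in these 5 libraries and 1531 had none. The wild type is the strain AmutBmut *pab1-1*, a homokaryon with mutations in both mating type loci and a defect in *pab1*, so that it needs *para*-aminobenzoic acid. Δ*cre1*-43 was made in that same background by cutting *cre1* with Cas9 ribonucleoprotein and replacing it with a *pab1* cassette, and it is a single transformant. Mutant and wild type therefore also differ in *pab1*, which cannot be told apart from the loss of *cre1* in these libraries. Every culture was vegetative mycelium kept at 28°C in darkness for 84 h on yeast extract, malt extract and 0.2% glucose, and RNA was measured by Quant-Seq, which reads the 3′ ends of polyadenylated transcripts.

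Cre1 is a C2H2 zinc finger protein. In ascomycete moulds, where it was mostly studied, it sits upstream of genes for the use of less favoured carbon sources and represses them while glucose is present, a regulation known as carbon catabolite repression. Genes for enzymes that break down plant cell walls are its best known targets in those fungi. Saprotrophic basidiomycetes such as *C. cinerea* live on decaying plant material and carry large families of such enzymes, among them cellulases, xylanases and lytic polysaccharide monooxygenases.

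The libraries held 10196707 to 10784810 assigned counts in the wild type and 6232525 and 8458754 in Δ*cre1*-43. A count of 3 was worth 0.283 to 0.453 CPM (a count relative to the library size, after the sizes were scaled by TMM, a trimmed mean of ratios between libraries), and this was taken as the floor of detection. Replicates of a strain differed by more than counting error, with a chi-square per degree of freedom of 11.8 to 20.2 between wild-type libraries and 17.3 between the Δ*cre1*-43 libraries, so that no library was a copy of another. The first principal component of log2 CPM took 68.8% of the variance and separated the strains, and the next one took 15.0% and set the 2 Δ*cre1*-43 libraries at opposite ends. By the study's own account fewer of the reads mapped to a single place in the mutant libraries, and this cannot be told apart from the genotype. It is not stated whether the cultures were independent, and P values measure the spread between these libraries only.

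Counts assigned to *cre1* itself (protein 466792, scaffold 250, positions 3218 to 6556 on the forward strand) did not fall in the mutant. They were 94.5, 81 and 122 in the wild type and 58 and 69 under the label Δ*cre1*-43. After scaling, these were 8.85, 8.07 and 11.6 CPM against 8.76 and 8.37 CPM, and the groups overlapped. The log2 fold change was -0.15 (SE 0.25, edgeR adjusted P = 0.791), the ratio of the means was 0.900 with a 95% interval from 0.521 to 1.55 on 3 residual degrees of freedom, and the exact two-sided permutation test gave P = 0.8, for which 0.1 is the smallest value that 3 against 2 libraries can give. The gene model includes an overhang of 400 bp behind the stop codon that was counted with it. The study reported the deletion from PCR screens and from sequencing that placed the *pab1* cassette at the *cre1* locus. Later it still amplified a short inner piece of *cre1* from the mutants at high cycle numbers. Where the counts come from was not tested. They give no check of the deletion, and the libraries are named by their labels throughout.

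Against the wild type, 652 genes were higher and 320 lower in the libraries labelled Δ*cre1*-43, at an adjusted P of at most 0.05 and a change of at least 2-fold. Together these 972 genes were 6.82% of the genes tested, 4.58% higher and 2.25% lower. Without the fold limit 1087 genes were higher and 988 lower, so that the excess of rises lay in the large changes. Among the genes of at least 1 CPM whose libraries were off the floor in both strains, 192 rose and 70 fell at least 4-fold, 78 rose and 18 fell at least 8-fold, and 20 rose and 2 fell at least 32-fold. The median log2 fold change of the called genes was 1.72 for rises and -1.49 for falls. Genes that rose were mostly of low level in the wild type, with a median of 4.07 CPM, and those that fell of moderate level, with a median of 21.1 CPM. In the mutant these medians became 15.5 and 7.61 CPM. The median level over all genes of at least 1 CPM was 19.7 CPM. The values of the strains did not overlap in 643 of the 652 rises and in all 320 falls, a pattern that 41.4% of all genes showed. In bulk mycelium, fewer cells of a kind and less RNA per cell cannot be told apart. When each of the 5 libraries was left out in turn, 593 to 762 of the 972 calls remained, fewest without Δ*cre1*-43 replicate 1, 429 remained in every one of these fits, and 0 turned to the opposite direction.

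**Figure D1:**
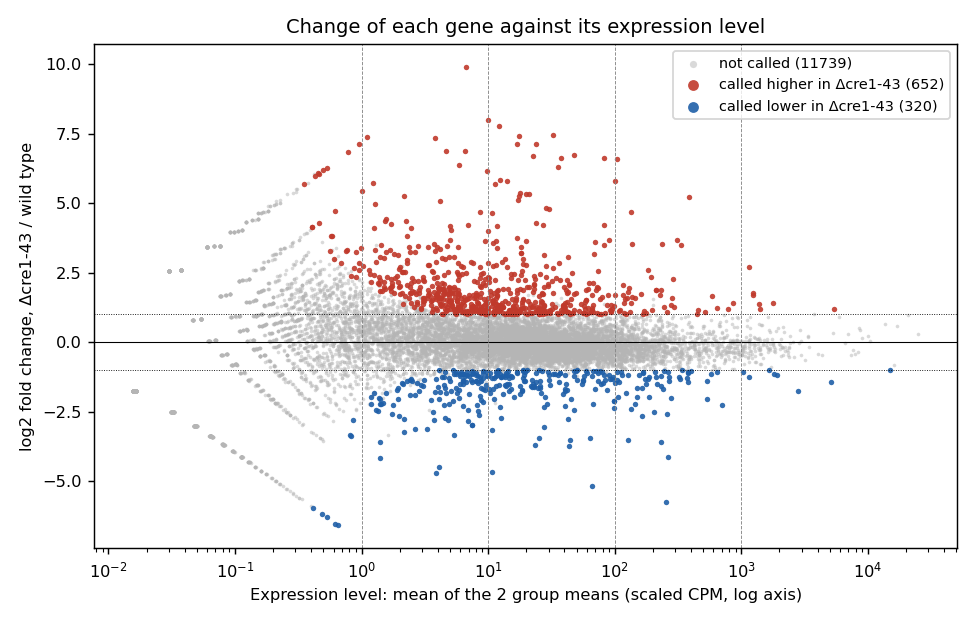
Fitted log2 fold change of each gene with a count (vertical axis, Δ*cre1*-43 over wild type) against its expression level (horizontal axis, mean of the 2 group means in scaled CPM, log axis). Red and blue points are the 652 genes called higher and the 320 called lower, grey points were not called, dotted lines mark 2-fold and dashed lines the bounds of the levels. The fan of grey points on the left is made of genes with few counts, and the largest rises lie between 1 and 100 CPM.

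Most of the transcriptome moved little, and how little depended on the expression level. The genes were divided by the mean of the 2 group means of scaled CPM. Between 10 and 100 CPM, a level that held 5280 genes, the median log2 fold change was -0.04, the middle 50% of genes lay between -0.35 and 0.30, and the median size of the change was 0.33. From 100 to 1000 CPM (1261 genes) the median size was 0.36, and at 1000 CPM or more (166 genes) it was 0.31. Replicates of a strain differed by less at each of these levels. Their differences are between single libraries with 0.5 CPM added, while the change is fitted to all libraries of both strains without that addition. The sizes are thus not strictly alike in measure. The median size of the log2 difference was 0.17 between wild-type libraries and 0.26 between the Δ*cre1*-43 libraries from 10 to 100 CPM, 0.14 and 0.21 from 100 to 1000 CPM, and 0.12 and 0.16 above that. From 1 to 10 CPM (3231 genes) the median size of the change rose to 0.50 as fitted, beside 0.29 and 0.44 between replicates with 0.5 CPM added. Below 1 CPM (2773 genes) the fitted median size of 1.67 became 0.29 when 0.5 CPM was added to both group means, beside 0.25 and 0.38 between replicates with the same addition.

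**Figure D2:**
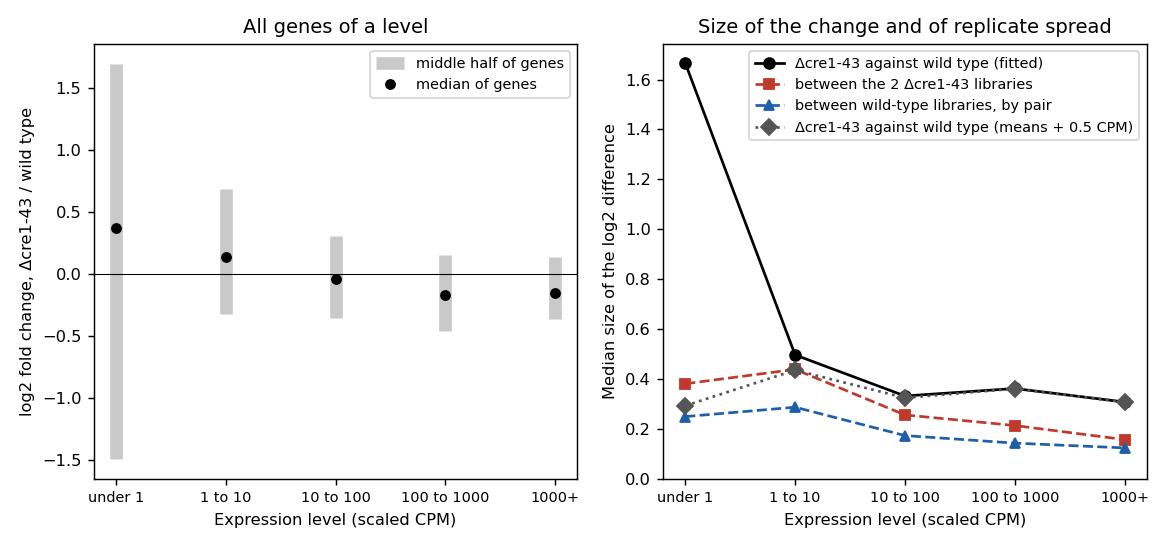
Left, median (point) and middle 50% (bar) of the log2 fold changes of all genes at each expression level in scaled CPM. Right, median size of the log2 difference between strains, as fitted (black) and from group means with 0.5 CPM added (grey), and between replicate libraries of Δ*cre1*-43 (red) and of the wild type (blue), both with 0.5 CPM added. Above 10 CPM the difference between strains, 0.31 to 0.36, exceeds that between replicates, 0.12 to 0.26, and under 1 CPM the fitted value of 1.67 falls to 0.29 once 0.5 CPM is added.

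The balance of rises and falls also changed with the level. From 1 to 10 CPM 300 genes rose and 119 fell, or 9.29% and 3.68% of that level, and from 10 to 100 CPM 271 rose and 132 fell, or 5.13% and 2.5%. From 100 to 1000 CPM 48 rose and 53 fell, and at 1000 CPM or more 7 rose and 8 fell. Under 1 CPM 26 rose and 8 fell, only 1.23% of the genes there, and 1749 genes with a fitted change of at least 2-fold were not called. The precision followed the level, with a median SE of the log2 fold change of 0.37 from 1 to 10 CPM, 0.19 from 10 to 100, 0.16 from 100 to 1000 and 0.12 above. Of the called genes, 31.5% from 1 to 10 CPM, 55.6% from 10 to 100 CPM, 62.4% from 100 to 1000 CPM and 9 of the 15 above that were called in all 5 fits with 1 library left out, but only 2.94% of those below 1 CPM. Seen from the wild type, 135 of the genes that rose had less than 1 CPM there, and 25 of these reached 10 to 100 CPM in the mutant, while 102 reached 1 to 10 CPM. Of the 23 genes that rose from 100 to 1000 CPM in the wild type, 8 passed 1000 CPM. In the other direction, 43 genes fell from 100 to 1000 CPM to between 10 and 100 CPM, and 33 from 1 to 10 CPM to under 1 CPM.

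The genes with the largest changes at each level are given next with their value in every library. From 1 to 10 CPM the rise of protein 368921, a GH10 xylanase with a CBM1 cellulose-binding module, was 0, 0 and 0.190 CPM in the wild type against 17.7 and 22.2 CPM in the mutant. This was at least 69-fold against the floor of 3 counts (adjusted P = 1.66e-06), and its model overlaps another on the opposite strand. Protein 494544, annotated with a CBM1 module alone, went from 0, 0.0996 and 0 CPM to 6.64 and 8.37 CPM, at least 26.0-fold (adjusted P = 2.19e-05). Protein 381202, which has no annotation in the tables held here and overlaps 2 other models, was at 0 in every wild-type library and at 1.66 and 2.79 CPM in the mutant, at least 7.70-fold (adjusted P = 0.00274). All 3 were thus at the floor in the wild type and clearly counted in both mutant libraries.

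Of the falls from 1 to 10 CPM, protein 364198, with a basic helix-loop-helix DNA-binding domain, had 8.10, 11.1 and 3.24 CPM in the wild type and 0.604 and 0 CPM in the mutant (log2 fold change -4.71, SE 0.83, adjusted P = 0.00287). It changed to -9.20 without Δ*cre1*-43 replicate 1 and lost its call without replicate 2 (-3.60, adjusted P = 0.069) or with limma voom (adjusted P = 0.11). Protein 442449 had 10.5, 6.18 and 6.95 against 0.604 and 0.121 CPM (log2 fold change -4.48, SE 0.55, adjusted P = 0.000294), which became -5.88 or -3.68 without the first or the second mutant library. Protein 544254 had 2.17, 3.99 and 1.81 against 0 and 0.243 CPM, at least 6.50-fold lower (adjusted P = 0.00685), and lost its call without Δ*cre1*-43 replicate 1 (adjusted P = 0.072). At this level the size of a fall rested on a few counts in the mutant.

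From 10 to 100 CPM the wild-type values of the largest rises were still at or near the floor. Protein 382347, of the AA9 family of lytic polysaccharide monooxygenases, which cleave cellulose by oxidation, had 0.0942, 0.0996 and 0.0952 CPM in the wild type, 1 count in each library, and 24.3 CPM in both mutant libraries. It was at least 84.0-fold higher (adjusted P = 1.15e-07). Protein 257118, with a pectin lyase fold, had 0.283, 0.0996 and 0.190 against 29.9 and 40.1 CPM, at least 121-fold (adjusted P = 1.38e-07), with a model on the opposite strand that overlaps it. Protein 394254, of the glucanase family GH152, had 0.377, 0.199 and 0.476 against 46.5 and 82.6 CPM (log2 fold change 7.46, SE 0.36, adjusted P = 1.84e-07). The replicates of each strain were close to each other beside the distance between the strains.

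The falls of that level began from well-measured values and were carried by genes without annotation. Protein 468140 had 172, 108 and 109.6 CPM in the wild type and 5.13 and 2.18 CPM in the mutant (log2 fold change -5.18, SE 0.36, adjusted P = 3.18e-06), and -5.88 without Δ*cre1*-43 replicate 1. Protein 454418 went from 23.5, 19.3 and 19.1 to 0.906 and 0.728 CPM (-4.65, SE 0.31, adjusted P = 2.69e-06), and protein 465218 from 81.9, 95.6 and 67.6 to 4.98 and 7.03 CPM (-3.75, SE 0.24, adjusted P = 1.66e-06). No value of a mutant library came near that of a wild-type library in these 3 genes, and none of their models overlaps another.

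From 100 to 1000 CPM both leading rises were cellulase genes. Protein 437020, of the cellobiohydrolase family GH6, had 2.73, 2.49 and 1.14 CPM in the wild type and 205 and 209.7 CPM in the mutant (log2 fold change 6.60, SE 0.26, adjusted P = 4.93e-08), with 1 overlapping model on its own strand. Protein 462750, of family GH7, which also acts on cellulose, had 3.86, 2.69 and 4.09 against 216 and 179 CPM (5.79, SE 0.21, adjusted P = 2.87e-08). Protein 442230, without annotation and overlapped by a model on the opposite strand, had 9.14, 10.5 and 10.9 against 216 and 306 CPM (4.68, SE 0.20, adjusted P = 7.61e-08). In each of the 3 the lower mutant value was far above the highest wild-type value.

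The largest fall of that level was a phosphate transporter gene. Protein 443129 had 642, 542 and 318 CPM in the wild type and 3.32 and 15.0 CPM in the mutant (log2 fold change -5.73, SE 0.53, adjusted P = 3.40e-05). Its value was -5.06 without Δ*cre1*-43 replicate 1 and -7.24 without replicate 2. Protein 501710 had 629, 388 and 469 against 26.3 and 30.3 CPM (-4.13, SE 0.24, adjusted P = 8.83e-07), and protein 489324 had 402, 375 and 516 against 42.4 and 30.0 CPM (-3.58, SE 0.22, adjusted P = 1.66e-06). Neither of the latter has an annotation here, and a model on the opposite strand overlaps those of 443129 and of 501710.

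Above 1000 CPM changes were smaller, at most 2.71 on the log2 scale. Protein 559348 had 355, 216 and 350.4 CPM in the wild type and 1074 and 2944 CPM in the mutant (log2 fold change 2.71, SE 0.33, adjusted P = 0.000302), and 1.80 without Δ*cre1*-43 replicate 2. It lost its call with a robust prior (adjusted P = 0.081). Protein 441209 had 382, 746 and 523 against 2010.1 and 1794 CPM (1.79, SE 0.22, adjusted P = 0.000277), and protein 469868 had 668, 614 and 472 against 1705 and 2083 CPM (1.70, SE 0.16, adjusted P = 4.07e-05). None of the 3 is annotated in the tables held here, and the models of 559348 and 469868 overlap others on the opposite strand.

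Of the falls above 1000 CPM, protein 452466 had 5608, 4854 and 2591 CPM in the wild type and 1640.4 and 921 CPM in the mutant (log2 fold change -1.76, SE 0.30, adjusted P = 0.00279), and it lost its call without Δ*cre1*-43 replicate 2 (-1.41, adjusted P = 0.076), with limma voom (adjusted P = 0.071) and with a robust prior (adjusted P = 0.15). Protein 445635 had 6922, 8048 and 7315 against 2433 and 3069 CPM (-1.43, SE 0.13, adjusted P = 3.03e-05), and protein 445156 had 1594, 1636 and 1609 against 634 and 712 CPM (-1.26, SE 0.12, adjusted P = 5.81e-05). The strains did not overlap in any of the 3, and came closest in 452466, whose model overlaps another.

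**Figure D3:**
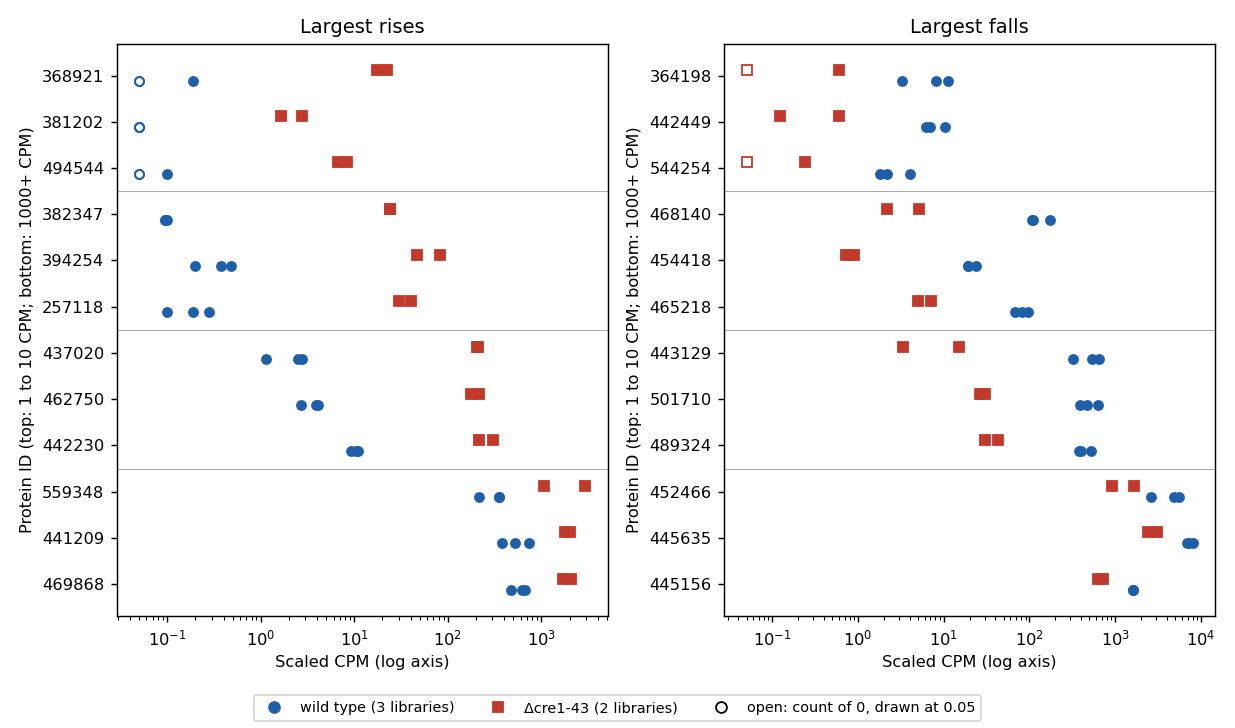
Scaled CPM (log axis) of the 3 largest rises (left) and 3 largest falls (right) at each expression level from 1 CPM up, in each library. Circles are the 3 wild-type libraries, squares the 2 Δ*cre1*-43 libraries, open symbols a count of 0 drawn at 0.05 CPM, and grey lines separate the levels. The groups do not overlap in any of these genes, which was a condition of their choice.

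The 5 genes of the highest level, by the mean of both strains, differed between the strains by 0.28 to 1.003 in size on the log2 scale. Protein 454076 had 20475, 23239 and 23778 CPM in the wild type and 26867 and 27868 CPM in the mutant (log2 fold change 0.28, SE 0.09, adjusted P = 0.0681), a difference that did not pass the test. Its neighbour on scaffold 190, protein 441230, had 19147, 18536 and 21893 against 9335 and 10488 CPM (-1.003, SE 0.11, adjusted P = 0.00012), which puts it just inside the 2-fold limit. The call of 441230 was lost, with an adjusted P of at most 0.015, under 11 of the 17 other settings. Proteins 401628 and 452134 lie next to each other on scaffold 120. The first had 13722, 13864 and 14025 against 24652 and 30285 CPM (0.99, SE 0.10, adjusted P = 8.31e-05), and the second 13120, 13482 and 13863 against 19056 and 21604 CPM (0.59, SE 0.09, adjusted P = 0.00167), so that both differed by adjusted P but stayed under 2-fold. Protein 381000 had 19592, 19994 and 21942 against 12314 and 10965 CPM (-0.82, SE 0.10, adjusted P = 0.000307), likewise under 2-fold. None of the 5 is annotated in the tables held here, and none of their models overlaps another.

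In terms of transcript share, the genes called higher took 1.68% to 1.77% of the scaled counts in the wild type and 5.34% and 5.42% in the mutant. Those called lower went from between 6.67% and 7.11% to 2.82% and 2.88%. These shares describe genes chosen by the same contrast. The 10 called genes with the largest gain in CPM held 41.6% of the total gain, and the 10 called genes with the largest loss held 60.1% of the total loss, 441230 alone going from 19859 ± 1788 (SD, n = 3) to 9911 ± 815 CPM (SD, n = 2). The 10 and 10 genes were picked after their values were seen. Among the called genes the largest gain was that of protein 456645, from 3133, 3029 and 3615 to 6922 and 8172 CPM (log2 fold change 1.21, SE 0.12, adjusted P = 5.78e-05). The 9 others that gained included 437769 (1.40), 406855 (1.37), 411888 (1.41), 448480 (1.67) and 456054 (1.19), a gene of the copper radical oxidase family AA5_1 in the study's list of fungal cell wall genes, which had 673, 996 and 901 CPM in the wild type and 1799 and 2117 CPM in the mutant. Protein 212774 was among them through 1 library only, with 1496 CPM in Δ*cre1*-43 replicate 1 and 9.09 CPM in replicate 2, beside 12.5, 9.07 and 38.3 CPM in the wild type. It was not called by limma voom (adjusted P = 0.46) or with a robust prior (adjusted P = 0.30). Among the losses were 491298 (998, 1221 and 1284 against 232 and 253 CPM, log2 fold change -2.27, SE 0.16, adjusted P = 3.05e-06) and 178286, annotated as similar to the tryptophan decarboxylase PsiD (834, 698 and 1065 against 254 and 169 CPM, -2.03, SE 0.22, adjusted P = 0.000118), together with 415885 (-1.17), 431646 (-1.15), 546528 (-1.07) and 392894 (-1.01). Of these last 4, each lost its call through the fold limit when Δ*cre1*-43 replicate 1 was left out, with values of -0.89, -0.98, -0.75 and -0.98, and 392894 also without wild type replicate 3 (-0.94) and under 8 settings that used all 5 libraries (-0.94 to -0.999).

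**Figure D4:**
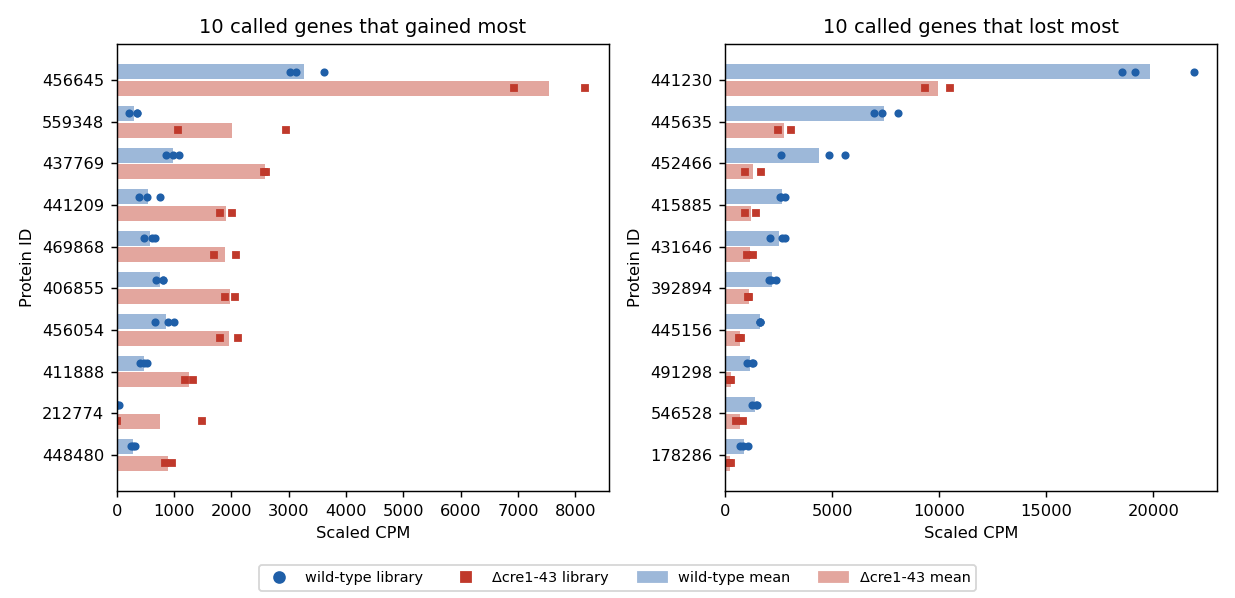
Scaled CPM of the 10 called genes with the largest gain (left) and the 10 with the largest loss (right) in mean CPM. Bars are group means, circles the 3 wild-type libraries and squares the 2 Δ*cre1*-43 libraries. The largest loss, that of protein 441230, takes the mean from 19859 to 9911 CPM, and protein 212774 is high in 1 mutant library only.

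The gene lists below come from the study, for plant cell wall degrading enzymes (PCWDE), fungal cell wall enzymes, transcription factors and plasma membrane transporters. They hold only genes that the study called changed in a mutant strain, from libraries that include these. Their share of calls and, in part, their direction are thereby set by the choice. Counts out of a list are not counts out of a whole family. Of the 82 PCWDE genes 61 were higher and 10 lower, beside 4.58% and 2.25% of all genes, and their median log2 fold change was 2.41, or 2.20 with genes at the floor set to their bound, beside 0.01 over all 12711 genes with a count. Leaving out a library left 52 to 57 higher and 4 to 7 lower: 4 without Δ*cre1*-43 replicate 2, 5 without wild type replicate 2 or 3 and 6 without Δ*cre1*-43 replicate 1. Summed over the list, PCWDE transcripts made up 841 to 1080.3 CPM in the wild type and 3106 and 2922 CPM in the mutant, and 46 of the models overlap another.

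By substrate, the 42 genes assigned to cellulose moved most, with 37 higher and 1 lower, a median of 3.25 and a sum that went from between 94.9 and 100.02 CPM to 1433 and 1593 CPM. A gene listed for more than 1 substrate counts under each, as 368921 does for cellulose and hemicellulose. Counts and sums of the substrate groups are therefore not separate. All 4 listed genes of family GH6, the cellobiohydrolases that cut from the non-reducing chain end, were higher, with log2 fold changes of 4.84 to 6.63. Of the listed genes, 15 of the 17 with a CBM1 module and 13 of the 15 of family AA9 were higher as well. The AA9 gene called lower, protein 374918, had 2.07, 1.89 and 1.90 CPM against 0.604 and 0.243 CPM (log2 fold change -2.22, SE 0.62, adjusted P = 0.0319), and leaving out any library but Δ*cre1*-43 replicate 1 took its adjusted P to between 0.088 and 0.12, and the replicate block or equal depth to 0.091.

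For hemicellulose, 27 of 37 genes were higher and 5 lower, with a median of 1.78. The 5 falls became 3 without wild type replicate 2 or 3 or Δ*cre1*-43 replicate 1, and 2 without Δ*cre1*-43 replicate 2. The most abundant, the GH11 xylanase gene 491702, had 33.0, 23.8 and 8.66 CPM in the wild type and 267 and 234 CPM in the mutant (3.52, SE 0.38, adjusted P = 0.000118, but 0.053 with a robust prior), with an overlapping model on the opposite strand. Another GH11 gene, 546727, went the other way, from 0.377, 1.10 and 1.71 CPM to 0 in both mutant libraries, at least 2.6-fold lower (adjusted P = 0.0356), a call lost when wild type replicate 2 or 3 or either mutant library was left out (adjusted P from 0.11 to 0.15), with limma voom (0.074) or with the replicate block (0.11). Of the 4 listed genes of family CE4, polysaccharide deacetylases, 3 were lower and 1 higher.

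All 11 listed pectin genes were higher, with a median of 2.84 and a sum of 53.4 to 63.5 CPM in the wild type against 437 and 429 CPM. Protein 289976, a CE16 esterase, rose most, from 0.848, 0.598 and 1.05 CPM to 43.2 and 26.4 CPM (5.36, SE 0.31, adjusted P = 9.80e-07), and the arabinofuranosidase gene 417392 of family GH51 was the most abundant, with 10.2, 15.9 and 12.4 against 150.1 and 182 CPM (3.69, SE 0.20, adjusted P = 6.32e-07). Expansins, non-enzymatic proteins that loosen plant walls, were split. Protein 167773 had 51.8, 51.6 and 52.4 CPM in the wild type and 412 and 213 CPM in the mutant (2.59, SE 0.23, adjusted P = 2.73e-05), and 421450 had 60.5, 69.3 and 72.4 against 27.5 and 39.0 CPM (-1.02, SE 0.19, adjusted P = 0.00421), a call at the 2-fold limit that leaving out wild type replicate 2 or 3 (-0.99 and -0.96) or Δ*cre1*-43 replicate 1 (-0.79) ended. So did 4 settings with all libraries (-0.98 to -0.99).

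The lignin genes are on the list because the study called them lower in a mutant strain, from data that include the libraries used here. Their direction was thus set by the choice, and the counts are no result about lignin genes as a whole. Of the 4 lignin genes 3 were lower and 0 higher by edgeR, with 3 at an unadjusted P under 0.05. DESeq2 called 3 lower and limma voom 2, and both called 0 higher. With a library left out it was 2 in 4 of the fits and 1 without Δ*cre1*-43 replicate 2. The laccase gene 208308 (family AA1_1) had 5.27, 5.98 and 5.81 CPM against 1.36 and 1.33 CPM (-2.07, SE 0.35, adjusted P = 0.00235). The class II peroxidase gene 446928 (AA2) was the most abundant, with 219, 335 and 163 CPM in the wild type and 91.9 and 31.0 CPM in the mutant (-1.96, SE 0.41, adjusted P = 0.00767). Its call was lost without wild type replicate 2 (-1.64, adjusted P = 0.058) or Δ*cre1*-43 replicate 2 (-1.38, adjusted P = 0.074), and with limma voom (adjusted P = 0.074) or a robust prior (adjusted P = 0.20), and its value was -2.94 without replicate 1.

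Of the 19 listed fungal cell wall genes 9 were higher and 5 lower, with a median log2 fold change of 1.03. Apart from 394254 above, the fall of protein 422563 stood out, which carries the chitin-binding LysM module CBM50. It had 278, 325 and 252 CPM in the wild type and 43.9 and 46.4 CPM in the mutant (-2.65, SE 0.18, adjusted P = 2.69e-06), with a model overlapping on the opposite strand. The list summed to 1895 to 2280.5 CPM in the wild type and to 2597 and 3019 CPM in the mutant, where 456054 made up most of it.

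Listed transcription factor genes moved both ways, 12 of 31 higher and 6 lower, with a median of 0.67 and summed levels of 567 to 648 CPM in the wild type and 787 and 725 CPM in the mutant. Without Δ*cre1*-43 replicate 1 only 7 were higher. Protein 495201, with the fungal Zn(2)-C6 DNA-binding domain, was the most abundant and went from 27.1, 20.6 and 15.5 CPM to 112 and 140.3 CPM (2.58, SE 0.22, adjusted P = 1.67e-05). Protein 367382, a C2H2 zinc finger gene, had 82.9, 57.3 and 101 against 14.2 and 15.5 CPM (-2.44, SE 0.25, adjusted P = 7.38e-05). The models of both overlap one on the opposite strand. Protein 383339, annotated with a transposase and a zinc finger domain, was at the floor in the wild type and at 3.02 and 1.94 CPM in the mutant, at least 8.58-fold higher (adjusted P = 0.00386).

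Plasma membrane transporters were the study list with most falls, 24 of 54, beside 20 rises, and a median of -0.49. Without Δ*cre1*-43 replicate 1 the rises were 11. Summed, these genes went from between 3190 and 3832 CPM to 2587 and 2444 CPM, and the phosphate transporter 443129 made up part of that loss. The most abundant, 176106, a proton-dependent oligopeptide transporter, had 577, 514 and 527 against 291 and 237 CPM (-1.03, SE 0.15, adjusted P = 0.000908), a call at the fold limit that was lost with wild type replicate 1 (-0.98) or Δ*cre1*-43 replicate 2 (-0.90) left out and under 2 other scalings (-0.98 and -0.99). The largest rise, that of the major facilitator gene 501637, ran from 0.0942, 0.0996 and 0.190 CPM to 1.66 and 4.37 CPM, at least 10.4-fold (adjusted P = 0.00199). The largest fitted fall of the list, that of 432854, rested on 1.04, 1.30 and 0.571 CPM against 0 in both mutant libraries, at least 2.37-fold lower (adjusted P = 0.027), and was not called when any library but wild type replicate 3 was left out (adjusted P from 0.086 to 0.10), with the replicate block (0.056) or at equal depth (0.061).

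**Figure D5:**
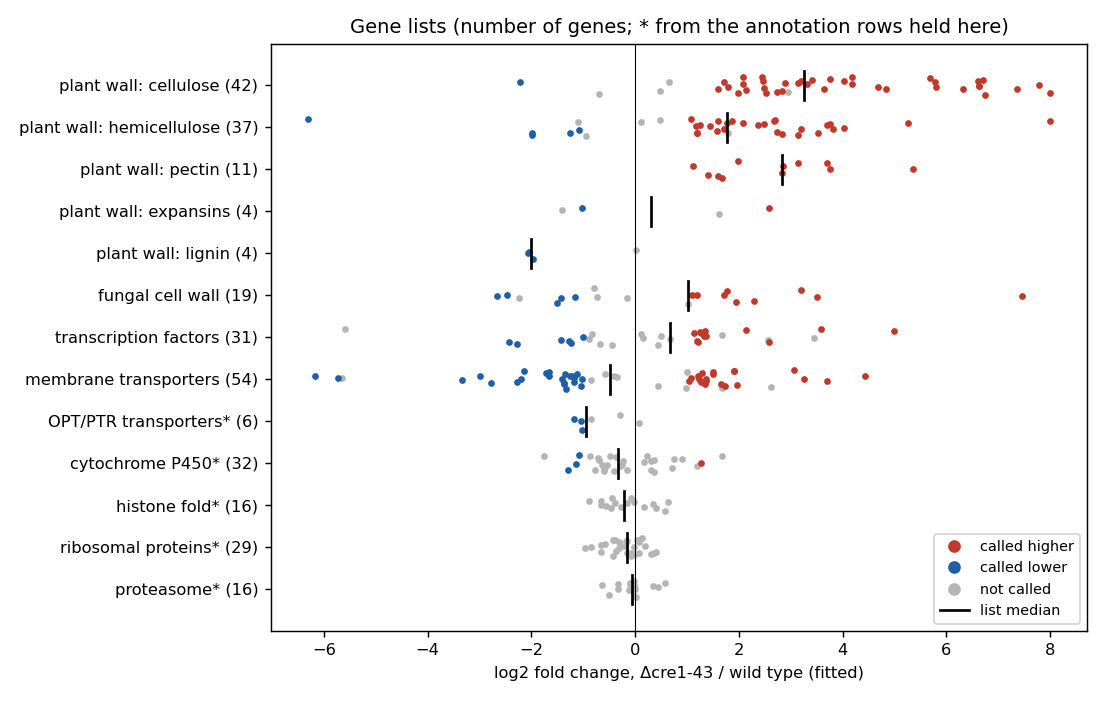
Fitted log2 fold change (Δ*cre1*-43 over wild type) of each gene with a count in 13 gene lists, with the number of genes in brackets. Red points were called higher, blue points lower and grey points not called, and the black line is the median of the list. Lists without a star hold only genes that the study called changed in a mutant strain, and starred lists come from protein domain annotation. The medians of the 2 kinds of list are therefore not comparable. Of the study lists, the cellulose genes centre on 3.25 and transporters spread to both sides of 0. The starred proteasome genes centre on -0.07.

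Further groups were taken from protein domain annotation, of which 1999 rows were held, so that each holds part of its family. Here and below, a single call in a small group is no result about that group. In machinery that every cell uses, no gene of the 29 for ribosomal proteins, the 16 with proteasome-related and the 16 with histone-fold annotation was called by edgeR. At an unadjusted P under 0.05 there were 12, 4 and 8, beside 27.6% of all genes, the 1531 without a count included. The shares of the ribosomal and histone-fold groups were above that, and the share of the proteasome group was not. DESeq2 and limma voom called 0 in each, beside 4.58% of all genes called higher and 2.25% lower by edgeR. Their median log2 fold changes were -0.16, -0.07 and -0.21. Summed levels went from between 14680.1 and 15392 CPM to 13014 and 13476 CPM for the ribosomal group, and from between 1431 and 1574 CPM to 1062 and 1143 CPM for the histone group, without overlap, while those of the proteasome group overlapped. The most abundant members were an elongation factor 1 subunit (161813, -0.18, adjusted P = 0.485), a COP9 signalosome subunit (255029, -0.04, adjusted P = 0.969) and histone H2B (361866, -0.38, adjusted P = 0.0868).

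Protein kinase-like genes numbered 58, with 0 called by edgeR, DESeq2 or limma voom, 13 at an unadjusted P under 0.05 and a median of -0.14. That share is below the 27.6% of all genes. The next 3 groups had shares called higher near the 4.58% of all genes, so that their counts are no result about them. WD40 repeat genes had 2 of 48 higher, one of them 355819, which is the GH74 xyloglucanase gene (1.58, adjusted P = 0.0039, lost without Δ*cre1*-43 replicate 1 at adjusted P = 0.084 and with limma voom at 0.054). F-box genes had 3 of 72 higher, with 116376 the largest (13.8, 13.8 and 9.90 against 28.1 and 31.0 CPM, 1.24, SE 0.20, adjusted P = 0.0021), and RNA recognition motif genes 1 of 26, protein 160155 (1.53, adjusted P = 0.0157, not called without either mutant library or with limma voom). Of the 20 genes with a tRNA term 1 was lower, 355550, an arginine-tRNA-protein transferase (-1.17, adjusted P = 0.00433). Homeobox-like, acyl-CoA dehydrogenase, glutathione S-transferase, aspartic peptidase and short-chain dehydrogenase genes had 0 calls among 13, 6, 7, 10 and 15 by edgeR, DESeq2 and limma voom, with 2, 1, 2, 0 and 4 at an unadjusted P under 0.05. Only 3 of the 10 aspartic peptidase genes had a count.

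Of 32 cytochrome P450 genes, oxidases of lipids and foreign compounds, 1 was higher and 3 were lower, beside 4.58% and 2.25% of all genes. Their median was -0.32. The share higher was near that of all genes, and so few calls are no result about the group. Protein 369363 had 23.5, 18.4 and 20.5 CPM in the wild type and 9.36 and 7.64 CPM in the mutant (-1.30, SE 0.22, adjusted P = 0.00254), and 368784 had 5.18, 4.78 and 4.0 against 12.2 and 10.2 CPM (1.26, SE 0.25, adjusted P = 0.00629, lost without Δ*cre1*-43 replicate 1 at adjusted P = 0.054). Of 14 alcohol dehydrogenase-like genes 2 were higher, beside 4.58% of all genes. The most abundant, 273601, had 118, 133 and 169 against 307 and 543 CPM (1.61, SE 0.23, adjusted P = 0.000798), with an overlapping model on the opposite strand. Among 38 other glycoside hydrolases of the annotation, 8 were higher and 1 lower, beside 4.58% and 2.25% of all genes. Of these 9 called genes 8 are also in a study list above. The one that fell was the GH47 mannosidase gene 252133 of the PCWDE list (108, 112 and 105 against 56.8 and 45.8 CPM, -1.08, SE 0.16, adjusted P = 0.00125, and -0.94 without Δ*cre1*-43 replicate 2, under the limit). The most abundant of them, 365456, stood at 1653, 1963 and 1782 against 1457 and 1632 CPM (-0.22, adjusted P = 0.292).

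Copper proteins of the cupredoxin fold, to which laccases belong, summed to 1670.4 to 1851 CPM in the wild type and 1054 and 1229.8 CPM in the mutant. Of the 6 only the laccase gene 208308 was called, and the most abundant, 353817, had 1033, 1105 and 1016 against 600.4 and 724 CPM (-0.67, SE 0.13, adjusted P = 0.0065), under 2-fold. Of 5 hydrophobins, small proteins that coat aerial hyphae, 370922 fell from 203, 220.5 and 268 to 99.5 and 114 CPM (-1.11, SE 0.17, adjusted P = 0.00142), and its value was -0.99, under the limit, without wild type replicate 3 or with the replicate block. The most abundant hydrophobin gene, 354674 had 13.4, 63.3 and 229 CPM in the wild type and 252 and 345 CPM in the mutant and did not pass the test (1.55, SE 0.71, adjusted P = 0.182).

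Chaperones and lectins had few called members. The small heat shock gene 367102 had 9.51, 12.4 and 12.7 CPM in the wild type and 50.4 and 64.6 CPM in the mutant (2.32, SE 0.19, adjusted P = 1.42e-05), with 2 models overlapping on its own strand, and was the only one called of 11 HSP20-like and DnaJ genes, whose median was 0.44. The most abundant of these, the DnaJ gene 136858, had 72.8, 79.4 and 92.1 against 127 and 147 CPM (0.75, adjusted P = 0.00957), under 2-fold. Of 8 genes with a ricin B-like lectin domain 2 were higher and 1 lower, beside 4.58% and 2.25% of all genes. So few calls are no result about the group. Protein 369576 had 1.70, 2.39 and 3.24 against 12.4 and 22.4 CPM (2.83, SE 0.33, adjusted P = 0.000217), and 361505 had 99.0, 116 and 92.1 against 41.8 and 58.9 CPM (-1.02, SE 0.19, adjusted P = 0.00436), the latter under the fold limit without wild type replicate 2 (-0.92) or Δ*cre1*-43 replicate 1 (-0.80) and under 3 other settings (-0.99 to -0.999).

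Among transport and signalling genes, 3 of 6 oligopeptide transporters were lower and 0 higher by edgeR, with 4 at an unadjusted P under 0.05 (DESeq2 3 and 0, limma voom 2 and 0), and their sum went from between 978 and 1066 CPM to 573 and 525 CPM. The 3 called genes are also in the study's transporter list, and 2.25% of all genes were called lower. The tetrapeptide transporter 360169 had 41.3, 42.7 and 42.4 against 17.5 and 19.8 CPM (-1.17, SE 0.17, adjusted P = 0.00087). Major facilitator genes had 5 of 37 higher and 3 lower, beside 4.58% and 2.25% of all genes. Of these 8 called genes 5 are also in a study list above. Protein 243699 had 32.1, 42.9 and 40.9 against 7.40 and 18.3 CPM (-1.57, SE 0.31, adjusted P = 0.00569). It was -2.39 without Δ*cre1*-43 replicate 2 and was not called by limma voom (adjusted P = 0.058). The rise of 355921 lost its call in 4 of the 5 fits with a library left out and under 5 other settings (adjusted P from 0.06 to 0.23). Of 7 sugar transporter-like genes 1 was higher, which is no result about the group. This gene, 11944 of the study's transporter list, had 6.40, 6.68 and 4.38 against 13.9 and 13.5 CPM (1.23, SE 0.25, adjusted P = 0.00683), and its call was lost without Δ*cre1*-43 replicate 1 (1.21). The G protein alpha subunit gene 364990 had 5.84, 5.48 and 6.47 against 12.1 and 14.1 CPM (1.14, SE 0.23, adjusted P = 0.00652), 1 of 7 of its kind, and the most abundant one, 363001, was at 38.0 ± 5.25 (SD, n = 3) and 39.5 ± 5.23 CPM (SD, n = 2).

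Of the regulators in the domain annotation, 1 of 16 Zn(2)-C6 genes was lower and 0 higher by edgeR, DESeq2 and limma voom, with 7 at an unadjusted P under 0.05, and their sum went from between 544 and 636 CPM to 399 and 399 CPM. The called gene, 155580, had 18.4, 18.1 and 16.7 against 9.51 and 5.58 CPM (-1.24, SE 0.25, adjusted P = 0.00713, and 0.051 without Δ*cre1*-43 replicate 2). The most abundant, 359157, had 218, 227 and 239 against 109 and 125 CPM (-0.96, SE 0.15, adjusted P = 0.00169), just under 2-fold. Among 7 HMG box genes, 188021 rose from 0.753, 1.10 and 0.857 to 4.38 and 3.64 CPM (2.13, SE 0.42, adjusted P = 0.00548), and 142396 fell from 11.6, 10.76 and 10.4 to 4.98 and 3.15 CPM (-1.44, SE 0.28, adjusted P = 0.00533). These 2 called genes are also in the study's list of transcription factors. Of 8 ABC transporter-like genes 2 were higher, beside 4.58% of all genes, and so few calls are no result about the group. Of these, 365725 was high in Δ*cre1*-43 replicate 1 only, at 68.4 CPM beside 8.73 CPM in replicate 2 and 5.75, 13.2 and 4.85 CPM in the wild type, with a log2 fold change of 0.15 without that library. It was called in the fit without Δ*cre1*-43 replicate 2 but in none of the fits without another library. Nor was it called by DESeq2, limma voom, the low-count filter, the robust prior or the replicate block (adjusted P from 0.056 to 0.37).

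The most abundant members of the remaining groups, taken by the same rule, mostly changed by less than 2-fold. In the short-chain dehydrogenase group the most abundant was 370023 (log2 fold change -0.18, adjusted P = 0.457), annotated mostly with peptidase M16 terms. It did not pass the test, and neither did the arginyl-tRNA synthetase-like gene 362635 (-0.32, adjusted P = 0.244), the kinase gene 362899 (-0.39, adjusted P = 0.0921) and the P450 gene 119480 (-0.28, adjusted P = 0.237). Nor did the F-box gene 116413 (-0.27, adjusted P = 0.272), the sugar transporter-like gene 168570 (0.36, adjusted P = 0.18), the RNA recognition motif gene 324608 (0.14, adjusted P = 0.475), the aspartic peptidase gene 157784 (-0.04, adjusted P = 0.964), the acyl-CoA dehydrogenase gene 358025 (-0.32, adjusted P = 0.431) and 367986 of the homeobox-like group (0.54, adjusted P = 0.0673). The WD40 gene 358108 (-0.70, adjusted P = 0.0142), the lectin gene 116146 (-0.68, adjusted P = 0.0175), the HMG box gene 351135 (-0.84, adjusted P = 0.0177) and the ABC transporter-like gene 356460 (-0.54, adjusted P = 0.0202) passed it on adjusted P but not on fold. The cell wall members were the exception. In the part of the annotation held, 5 of 10 family 61 genes (now AA9) and 5 of 12 genes with a fungal cellulose-binding domain were higher and 0 were lower by edgeR. DESeq2 called 5 and 4 higher, limma voom 5 and 5, and both 0 lower, and 6 and 5 had an unadjusted P under 0.05. Over all genes 4.58% were called higher by edgeR and 27.6% had an unadjusted P under 0.05. All 5 called family 61 genes and 3 of the 5 called cellulose-binding genes are also in the study lists above, so that these counts are not independent of those. Protein 179843 rose from 0.283, 0.498 and 0.476 to 38.8 and 51.2 CPM (6.71, SE 0.29, adjusted P = 8.51e-08), 362458 from 8.85, 12.6 and 14.8 to 30.3 and 52.6 CPM (1.78, SE 0.26, adjusted P = 0.00106), and the CBM1 and CE1 esterase gene 358887 from 3.48, 2.89 and 4.28 to 29.3 and 36 CPM (3.20, SE 0.23, adjusted P = 4.44e-06). The rise of 370378, from 0 in the wild type to 0.906 and 0.485 CPM, was at least 2.41-fold (adjusted P = 0.0455) and was not called with any single library left out, with the replicate block (0.21) or at equal depth (0.077).

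Neighbouring gene models were called together in 8 places, 5 runs of rises with 18 genes and 3 runs of falls with 9 genes, counting at least 3 neighbours in 1 direction. The longest held 6 genes on scaffold 96, from 11445 to 20610 on the reverse strand, with log2 fold changes of 3.66 to 7.14, and includes the CE16 gene 289976. On scaffold 103, from 55954 to 62361, all 3 GH62 arabinofuranosidase genes of the PCWDE list lie side by side on the forward strand and rose alike. Protein 462081 had 1.79, 1.30 and 0.761 CPM against 5.13 and 3.76 CPM (1.78, SE 0.43), 400480 had 3.30, 2.89 and 3.62 against 13.4 and 8.12 CPM (1.71, SE 0.30), and 498983 had 7.91, 8.77 and 5.33 against 24.8 and 28.6 CPM (1.86, SE 0.23), with adjusted P values of 0.0169, 0.00277 and 0.000359. Differences between these 3 changes were smaller than their standard errors.

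The 3 other runs of rises lay on scaffold 122 (36020 to 39502, log2 fold changes of 1.89 to 3.48), scaffold 7 (362609 to 366030, 1.26 to 2.77) and scaffold 71 (65247 to 70780, 1.30 to 2.31). On scaffold 7 the models of 414030 and 472117 overlap each other on the same strand, so that their counts may not be separate. Of the run on scaffold 122, 2 models overlap others on the opposite strand. The falls lay on scaffold 35 (82235 to 89807), where the PsiD-like gene 178286 stood between 457157 (-2.52) and 496199 (-1.06), on scaffold 170 (43082 to 52453), which includes the CE4 gene 440521 (27.9, 24.1 and 24.7 against 4.23 and 8.49 CPM, -1.99, SE 0.27, adjusted P = 0.000671), and on scaffold 309 (9172 to 19193, -1.13 to -1.56). On scaffold 170 the models of 559338 and 440521 overlap each other on opposite strands, and that of 430412 overlaps another on the opposite strand. Since no source gives the strand setting of the counting, reads there cannot be assigned to 1 model with certainty.

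Gene structure differed little between the groups, as a description without a test. The median coding length was 957 bases for genes that rose and 1158 bases for those that fell, beside 1230.0 bases over the 9938 genes of at least 1 CPM, and the median number of exons was 4, 5 and 5. Models that overlap another made up 58.4% of the rises, 50.6% of the falls and 61.9% of the genes of at least 1 CPM.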

How the data were processed

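RNA of 3 wild-type and 2 Δ*cre1*-43 cultures was sequenced as Quant-Seq 3′ libraries. According to the methods, the authors trimmed adapters, polyA and poor-quality tails with bbduk, mapped reads to the AmutBmut genome of the Joint Genome Institute and assigned them to gene models, and per the labels STAR 2.6.1a, featureCounts, edgeR 3.34.0 and limma 3.48.3 were used. The deposited table holds estimated counts per gene model, since 12.0% to 31.8% of the values of a library were not whole, and they were rounded before each fit. Of the gene models, 96.7% carry an overhang of 400 bp that was counted with them. The strand setting of the counting is not given in the sources used here. The deposited table of normalised values was not used, and neither were the 2 libraries of the other mutant strain.

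Scaled CPM and fold changes were computed in R 4.3.3 with edgeR 4.0.16 (TMM scaling, quasi-likelihood test, no filter on low counts, no covariates), with Benjamini-Hochberg adjustment over 14242 genes. Calls required an adjusted P of at most 0.05 and a change of at least 2-fold. Where every library of a strain held at most 3 counts for a gene, its fold is given as a bound against that floor. Floors cover counting error alone, and P values the spread seen among the 5 libraries. The models were tested on counts simulated from the wild-type means with the fitted dispersions. Of 100 genes changed by 1.5 and 100 changed by 2 on the log2 scale, edgeR recovered 84 and 93, DESeq2 81 and 90, and limma voom 20 and 45. False calls numbered 10, 6 and 0. The simulation changed only 200 of the 14242 genes, and in the data limma voom kept 711 of the 972 calls. The simulated recovery therefore does not tell why a call was lost with limma voom. Replicate differences used a pseudocount of 0.5 CPM. Alternatives were DESeq2 1.42.0, limma voom (limma 3.58.1), a fit of all 7 libraries, other scalings, a filter on low counts, a robust prior, unrounded values, equal depth, the replicate number as a block, and each library left out.

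Genes were named by rule: *cre1*, the 3 largest rises and falls per expression level among called genes whose strains did not overlap, the largest rise, the largest fall and the most abundant member of each list, the 5 most abundant genes, the 2 called genes with the most unequal mutant libraries, and runs of at least 3 called neighbours. The genes of largest gain or loss, and the called genes whose strains overlapped, were chosen after their values were seen. The comparison, the lists and the rules were chosen with earlier results of these data known. Annotation came from the study's tables, of which the domain table was held in part (1999 rows).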

Additional observations from a re-analysis of the deposited data

How the results depend on the processing

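Under the 16 other settings tried with the 2-fold limit, 730 to 1010 genes were called, and 0 of the 972 calls turned to the opposite direction. Without the fold limit 2075 genes were called. With each library left out, 730 to 902 genes were called, PCWDE genes called lower numbered 4 to 7 (10 with all libraries), transcription factors called higher 7 to 10 (12), and transporters called higher 11 to 20 (20). Of the 86 named genes that were called, 58 kept call and direction under every setting that used all libraries, and 53 with each library left out. The replicate block gave 936 calls (598 higher, 338 lower), of which 816 were among the 972, and 5 PCWDE genes lower. The replicate numbers are not shown to pair the samples, since only 2 numbers are shared and nothing in the labels ties them (correlations of deviations of 0.12 and 0.15 over 9188 genes).

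Below 1 CPM the median size of the log2 change, 1.67 as fitted, became 0.29 and 0.092 with 0.5 and 2 CPM added to the group means. Changes close to 0 turned in sign: *cre1* to 0.018 with the replicate block and from -0.26 to 0.017 with a library left out, 157784 to 0.0013 by library size only and from -0.11 to 0.0027 with a library left out, 255029 from -0.17 to 0.066, and 363001 from -0.092 to 0.18. Genes high in 1 mutant library ranged, with a library left out, from -0.65 to 3.38 (16417), -1.13 to 6.22 (212774), -0.035 to 2.07 (445231), -0.080 to 3.62 (500405), 0 to 10.97 (508076, a fitted value with no bound) and -0.37 to 2.99 (545612). The cause was not tested. Depth limits the genes below 10 CPM most, where the median SE of a log2 fold change was 0.37 or more.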

Other observations

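In 9 of the 652 genes called higher the strains overlapped, 7 because Δ*cre1*-43 replicate 1 alone was high and 2 because replicate 2 alone was. Besides 212774 and 365725, replicate 1 stood out in 508076 (26.6 CPM, beside 0 in the 4 other libraries), 419415 (82.3 CPM, beside 8.95 to 15.9 CPM), 16417 (28.1 CPM, beside 1.70 to 2.95 CPM), 395952 (22.3 CPM, beside 0.0952 to 4.33 CPM) and 500405 (6.49 CPM, beside 0.476 to 0.565 CPM). Replicate 2 stood out in 545612 (187 CPM, beside 16.6 to 36.5 CPM) and 445231 (127 CPM, beside 23.9 to 34.4 CPM). Apart from 365725, none of the 9 has an annotation in the tables held here. The calls of these genes do not rest on a difference seen in both mutant libraries.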
